A study of Mus musculus with 6 samples.

Results

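The miR-99/100 and miR-125 families were followed in c-kit+ cardiac progenitor cells of the mouse, as the 10 rows of the known miRNA table that hold arms of miR-99a, miR-99b, miR-100, miR-125a and miR-125b. All 10 were found among the 1978 known mature miRNAs in the table. The rule that chose them used names, not measured values, but they were chosen with earlier results of these data known. Hearts of healthy wild-type male C57BL/6 mice aged 4 to 6 weeks were digested, and cells carrying the receptor c-kit were captured on magnetic beads coated with an antibody. The 3 control libraries are labelled 0 hours and the 3 hypoxia libraries 12 hours of culture under hypoxia. The treatment field names hypoxia for the control libraries too, so titles and times set the groups. No transgene or other agent is named for either group. The sources used here do not say whether control cells were also cultured, whether animals were pooled or which oxygen level was used, so time in culture and hypoxia cannot be told apart. The extraction text of the labels names exosomes as the source of RNA while the design text names the cells, and the text below speaks of the cells.

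MicroRNAs are cut from hairpin precursors, and each hairpin can give an arm from its 5p side and an arm from its 3p side. The arm that is mostly kept in Argonaute is called the guide, and the arm that is mostly degraded is called the passenger. Bases 2 to 8 of a miRNA, the seed, pair with target mRNAs. The miR-99/100 guides are known repressors of the growth kinase mTOR and of the receptor IGF1R, also in vascular cells. The miR-125 guides are the mammalian relatives of the worm timing miRNA lin-4 and are known to repress Lin28, an inhibitor of let-7 maturation, and the p53 mRNA. In mammals these miRNAs lie beside let-7 hairpins, whose guides restrain proliferation.

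The mature sequences from RefSeq (GRCm38.p6) are printed 5′ to 3′, since the seed decides which members share targets. All 10 members had a sequence. Capitals mark the seed, and the prefix mmu, for mouse, is left out elsewhere. The 3 guides of the miR-99/100 family share the seed ACCCGUA.
mmu-miR-99a-5p: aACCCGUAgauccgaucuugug
mmu-miR-99b-5p: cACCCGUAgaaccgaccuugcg
mmu-miR-100-5p: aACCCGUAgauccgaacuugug

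Counting positions from 1 at the 5′ end, miR-99a-5p and miR-100-5p differ by 1 base in 22, U16A. miR-99b-5p differs from miR-99a-5p at 4 positions (A1C, U11A, U16C and U21C). None of these lies in the seed. The sources used here do not say how reads that fit both miR-99a-5p and miR-100-5p were assigned, so the split of counts between this pair is less certain than their sum.

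The guides of the miR-125 family share the seed CCCUGAG, and miR-351-5p, which is no member and is encoded on chromosome X, shares it too.
mmu-miR-125a-5p: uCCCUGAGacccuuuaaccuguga
mmu-miR-125b-5p: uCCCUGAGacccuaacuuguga
mmu-miR-351-5p: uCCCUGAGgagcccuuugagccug

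miR-125a-5p and miR-125b-5p are identical over their first 13 bases, and miR-125b-5p and miR-351-5p over their first 8. The remaining mature miRNAs with this seed in the table, miR-6367 and miR-6394, had 0 counts in every library.

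The passenger arms carry other seeds, and those of the miR-125b hairpins differ from each other, so they show which hairpin a molecule came from.
mmu-miR-99a-3p: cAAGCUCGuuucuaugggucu
mmu-miR-99b-3p: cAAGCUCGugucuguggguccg
mmu-miR-125a-3p: aCAGGUGAgguucuugggagcc
mmu-miR-125b-1-3p: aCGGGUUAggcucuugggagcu
mmu-miR-125b-2-3p: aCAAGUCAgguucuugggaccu

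miR-99a-3p and miR-99b-3p share a seed. miR-125b-1-3p and miR-125b-2-3p differ at 5 of 22 positions (G3A, G4A, U7C, C11U and G20C), of which 3 lie in the seed.

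The members come from 6 hairpins in 3 clusters, each with a miR-99/100 hairpin, a let-7 hairpin and a miR-125 hairpin on the plus strand. On GRCm38, Mir100 (chr9:41531425-41531504), Mirlet7a-2 (chr9:41536716-41536811) and Mir125b-1 (chr9:41581926-41582002) span 50.6 kb. In the GENCODE M21 annotation these hairpins lie in introns of the non-coding genes 3110039I08Rik and Gm49317, and Mir125b-1 also in an exon of the sense-intronic gene Gm28119. Mir99a (chr16:77598936-77599000), Mirlet7c-1 (chr16:77599657-77599750) and Mir125b-2 (chr16:77646273-77646343) span 47.4 kb and lie in introns of the non-coding gene Mir99ahg. Mir99b (chr17:17830188-17830257), Mirlet7e (chr17:17830352-17830444) and Mir125a (chr17:17830812-17830879) span 692 bases inside the protein-coding gene Spaca6, Mir99b and Mirlet7e in an intron and Mir125a in an annotated exon. The guide miR-125b-5p is identical from Mir125b-1 and Mir125b-2, so its row counts both hairpins.

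**Figure D1:**
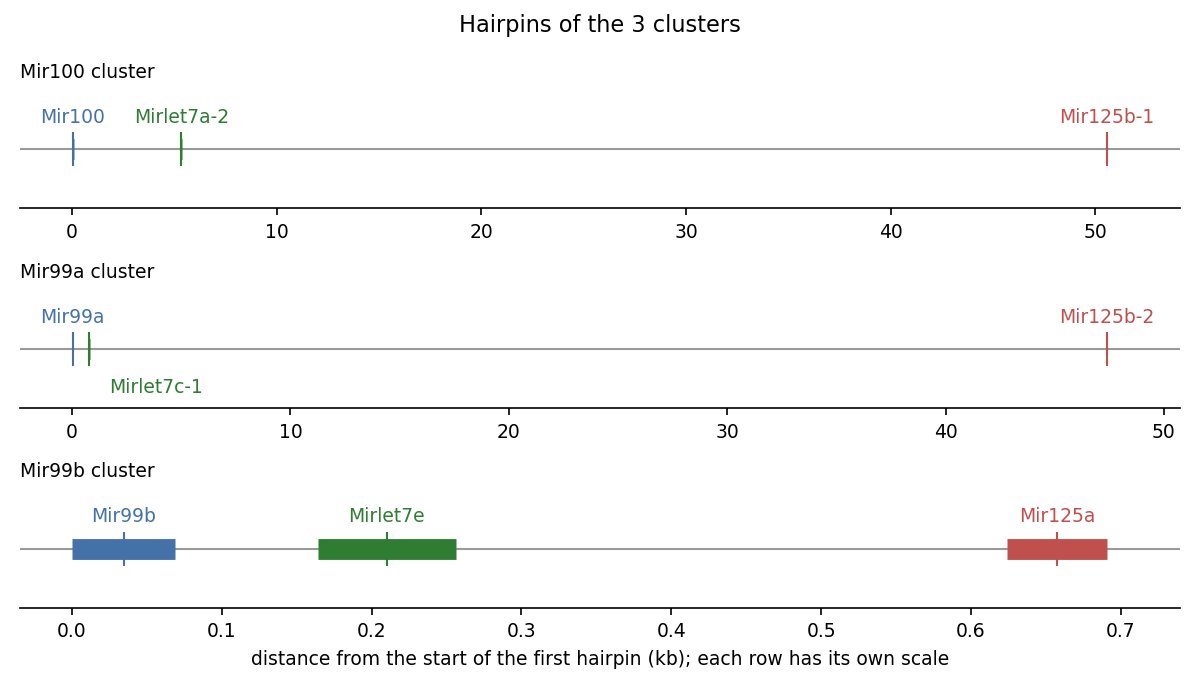
Each row maps a cluster by distance in kb from the start of its first hairpin, with its own scale, and marks miR-99/100 hairpins in blue, let-7 hairpins in green and miR-125 hairpins in red. The order is the same in all 3 clusters, while the span is 50.6 kb, 47.4 kb and 0.692 kb.

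Mir125b-1 is printed as the hairpin of the only member called below, with miR-125b-5p and then miR-125b-1-3p in capitals.
Mir125b-1: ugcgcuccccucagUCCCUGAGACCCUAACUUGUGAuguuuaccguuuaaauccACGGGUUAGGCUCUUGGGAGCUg

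Known miRNAs gave between 12285970 and 16975987 reads per library. Table columns carry the digit 0 or 1 and a letter from A to C. Columns with 0 were taken as control (0 hours) and columns with 1 as hypoxia (12 hours), every direction below depends on this, and libraries are named by group and letter. Levels are in CPM, reads scaled to a common total of known miRNA reads with TMM factors, and mature arms of 21 to 24 bases give 1 read each, so levels of different arms were compared without a length correction, although ligation preferences of the library kit could shift them. The mRNA of c-kit itself is not part of small RNA data. Of miRNA markers of other cell types, none was at 0 in all libraries. The 2 endothelial arms of miR-126a summed to between 200685 and 249670 CPM and 5 fibroblast and smooth muscle miRNAs to between 26075 and 57427 CPM. Sums were at most 1019 CPM for 6 blood markers, 176 CPM for 6 cardiomyocyte markers and 9.04 CPM for 4 epithelial markers. In hypoxia A, the library with the highest blood sum, miR-155-5p alone gave 1013 CPM. The ranges of these sums overlapped between control and hypoxia for all 5 lists. The cardiomyocyte sum was nevertheless higher in each hypoxia library than in the same-lettered control. It stood at 85.1, 172 and 77.2 CPM in control A, B and C, against 137, 176 and 104 CPM in hypoxia. Its largest part, miR-1a-3p, was lower in hypoxia B than in control B (146 against 153 CPM). The other sums did not keep the same direction. The reason was not tested. The labels call each group's libraries biological replicates but name no separate animals or cultures, and p-values can therefore cover technical spread alone.

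The 5 guide arms were abundant in every library and differed little between groups. Together they took 5.50% ± 0.320 of known miRNA reads in the control group and 5.33% ± 0.146 under hypoxia (mean ± SD of n = 3 libraries per group, here and below). The miR-99/100 guides took 4.14% ± 0.362 and 3.95% ± 0.150, and the miR-125 guides 1.36% ± 0.0622 and 1.38% ± 0.104. The 5 passenger arms summed to 0.132% ± 0.0127 of reads in control libraries and 0.103% ± 0.0168 in hypoxia libraries. From the highest mean level to the lowest, the guides were miR-99a-5p (rank 6 among all known miRNAs), miR-125b-5p (rank 15), miR-99b-5p (rank 20), miR-100-5p (rank 26) and miR-125a-5p (rank 29). The lowest library of each of the first 3 lay above the highest library of the next in this order, while miR-100-5p and miR-125a-5p overlapped. The passengers followed with miR-125b-1-3p (rank 83), miR-99b-3p (rank 105), miR-125b-2-3p (rank 158), miR-125a-3p (rank 243) and miR-99a-3p (rank 377). Among the passengers, miR-125b-1-3p and miR-99b-3p overlapped, and the other neighbours in this order did not.

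**Figure D2:**
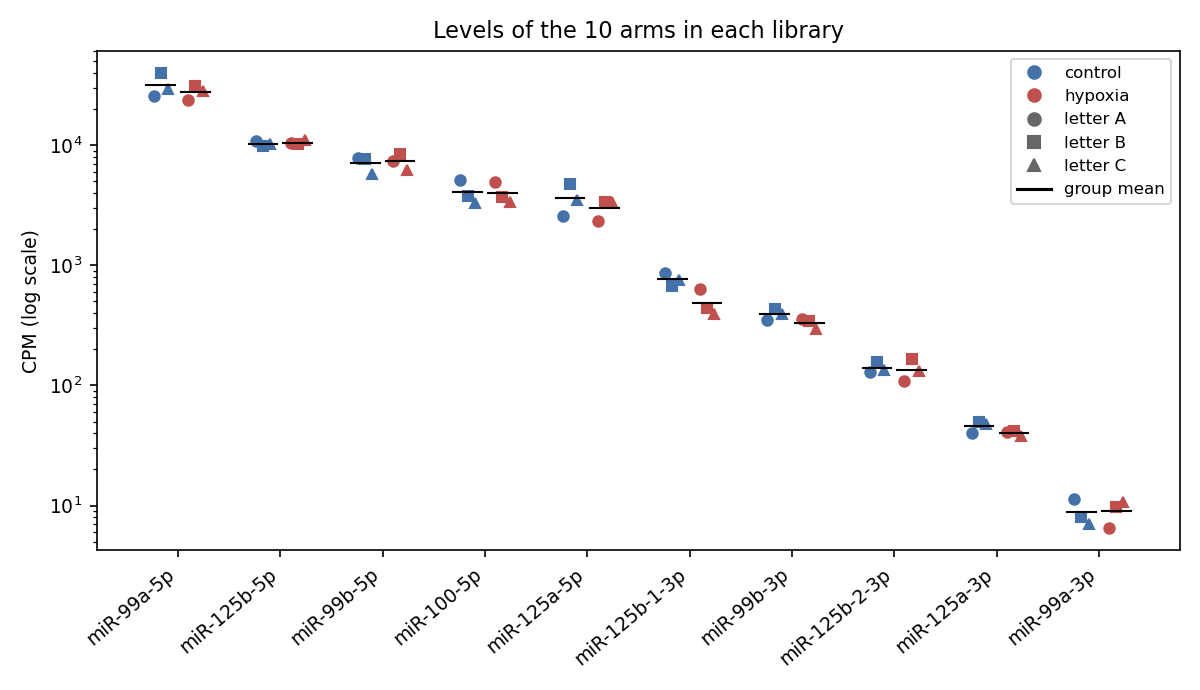
The level of each arm in CPM on a log axis is plotted for every library, blue for control and red for hypoxia, with a symbol for each column letter and a black line at the group mean (n = 3). Levels run from 39373 CPM for miR-99a-5p in control B to 6.55 CPM for miR-99a-3p in hypoxia A, and only the values of miR-125b-1-3p do not overlap between the groups.

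Hypoxia was compared with control by edgeR's quasi-likelihood test over the 619 known miRNAs that passed the filter on low counts, among them all 10 members. A miRNA counted as called at an adjusted p under 0.05 (Benjamini-Hochberg over all 619). Without a block, edgeR called 0 of 10 members, against 0% of all tested miRNAs, and 1 member, lower in hypoxia, had an unadjusted p under 0.05, against 6.79% of all and 2.75% in the lower direction. DESeq2 and limma-voom also called 0 members. Libraries with the same column letter deviated together from their group means, so the letters were taken as pairs. Over the 10 members alone these correlations were 0.37, 0.67 and 0.03 for A, B and C, so pair C did not stand out there, and the blocked values rest on this pairing. The pairing itself was read from the same counts as the blocked values. Once the letter entered the fit as a block, 1 of 10 members passed in edgeR: miR-125b-1-3p, which was lower in hypoxia, against 2.26% of all tested miRNAs in either direction and 1.29% in the lower direction. The median log2 fold change of the 10 members was -0.12 without the block, beside 0.01 over all 619 tested, with 3 members above 0 and 7 below, while 51.2% of all tested lay above 0. Scaled by library size alone, 5 members lay above 0 and 5 below, while 60.3% of all tested lay above 0. The standard error was smaller with the block for all 10 members.

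The guide miR-99a-5p, the main miR-99/100 guide, stood at 25761, 39373 and 29519 CPM in control A, B and C and at 23472, 30718 and 28073 CPM in the hypoxia libraries in the same order. Library B was the highest and A the lowest in both groups, and the groups overlapped. Its log2 fold change was -0.20 (SE 0.18, edgeR adjusted p = 0.94), and -0.19 with the letter block (SE 0.09, adjusted p = 0.28). Without the block, leaving out control B gave -0.03 and leaving out control A -0.35.

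miR-100-5p, which differs from it by the base at position 16, stood at 5087, 3797 and 3275 CPM in control A, B and C, against 4945, 3721 and 3333 CPM in hypoxia. Here library A was the highest in both groups, and same-lettered libraries lay close together, with differences in log2 CPM of -0.04, -0.03 and 0.03 for A, B and C. The log2 fold change between the groups was -0.02 (SE 0.22, edgeR adjusted p = 0.99), and 0.05 when scaled by library size alone. Summing miR-99a-5p and miR-100-5p into 1 row gave -0.18 (SE 0.16, edgeR adjusted p = 0.93).

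For miR-99b-5p, the guide from the compact cluster in Spaca6, levels were 7766, 7666 and 5700 CPM in control A, B and C, against 7341, 8377 and 6201 CPM in hypoxia. Library C was the lowest in both groups and the groups overlapped, and the log2 fold change was 0.05 (SE 0.18, edgeR adjusted p = 0.99).

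miR-125b-5p, the main miR-125 guide, varied least of all members. Its levels were 10836, 9777 and 10218 CPM in control A, B and C, against 10339, 10113 and 10948 CPM in hypoxia. No library stood apart, and the log2 fold change was 0.03 (SE 0.12, edgeR adjusted p = 0.99).

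The other miR-125 guide, miR-125a-5p, stood at 2592, 4717 and 3516 CPM in control A, B and C, against 2333, 3350 and 3346 CPM in hypoxia. Library A was the lowest in both groups, and each hypoxia library lay below its same-lettered control, by -0.15, -0.49 and -0.07 in log2 CPM for A, B and C. The log2 fold change was -0.26 (SE 0.24, edgeR adjusted p = 0.94), and -0.24 with the letter block (SE 0.11, edgeR adjusted p = 0.26). miR-125a-5p was thus not called in either fit. The fit without the block gave -0.04 when control B was left out and -0.47 when control A was. Besides miR-125b-1-3p and miR-99a-5p it was the only member lower in hypoxia in all 3 pairs, 3 of 10 members against 19.5% of all tested miRNAs. No member was higher in all 3 pairs, and 39.6% of all tested had the same direction in all 3.

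**Figure D3:**
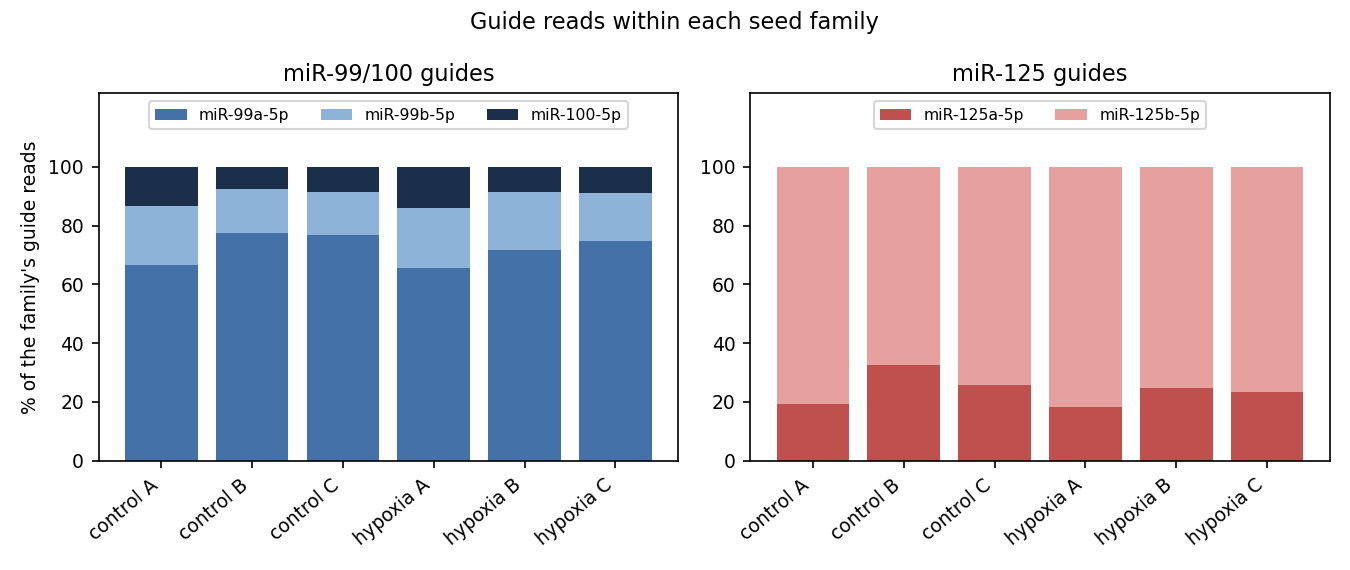
Stacked bars give each guide's percentage of the reads of its seed family in every library. The share of miR-99a-5p runs from 65.6% to 77.5% and that of miR-125b-5p from 67.5% to 81.6%, and the libraries lettered A have the largest shares of miR-100-5p and the smallest of miR-125a-5p in both groups.

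Within the seed families the makeup set both libraries lettered A apart from the rest, while the libraries lettered B and those lettered C overlapped for each guide. miR-100-5p made up 13.2%, 7.47% and 8.51% of miR-99/100 guide reads in control A, B and C, against 13.8%, 8.69% and 8.86% in hypoxia A, B and C. Both libraries lettered A thus lay above the other 4. The same libraries had the highest level of each of the 5 fibroblast and smooth muscle miRNAs, which summed to 57427 CPM in control A and 50353 CPM in hypoxia A, against 26075 to 32966 CPM in the other 4. They also had the highest sums of the 6 blood markers, 902 and 1019 CPM against 502 to 631 CPM. miR-155-5p alone gave 894 CPM in control A and 1013 CPM in hypoxia A, so these sums mostly follow this miRNA. Of the 6 markers, 2 were highest in both libraries lettered A, miR-155-5p and the rare miR-142a-3p. Another, miR-451a, was highest in hypoxia B. The blood sums therefore do not show a trait shared by the blood markers as a set. The part of these markers in the makeup was not tested. For miR-125a-5p the share of miR-125 guide reads was 19.3%, 32.5% and 25.6% in control and 18.4%, 24.9% and 23.4% in hypoxia, with both libraries lettered A at the bottom. The number of miR-99a-5p reads per miR-100-5p read was 5.06, 10.4 and 9.01 in control and 4.75, 8.26 and 8.42 in hypoxia. Between the groups this log2 ratio differed by -0.17 (two-sided exact permutation test over n = 3 libraries each, p = 0.5, adjusted p = 0.69 over 11 ratios, smallest possible p 0.1). The ratio of miR-125a-5p to miR-125b-5p differed by -0.27 on the log2 scale (same exact test, p = 0.4, adjusted p = 0.69), by -0.016 without control B and by -0.52 without control A.

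Guides from neighbouring hairpins of the cluster in Spaca6 did not keep a fixed ratio across libraries. There were 3.00, 1.63 and 1.62 miR-99b-5p reads per miR-125a-5p read in control A, B and C, against 3.15, 2.50 and 1.85 in hypoxia, highest in A in both groups (log2 difference between the groups 0.29, exact permutation test, p = 0.5, adjusted p = 0.69). Reads of let-7e-5p, the guide between them, per miR-125a-5p read were 0.950, 0.579 and 0.675 in control and 1.16, 0.849 and 0.749 in hypoxia (log2 difference 0.33, exact permutation test, p = 0.4, adjusted p = 0.69). Each of the 3 pairs had the higher ratio in hypoxia, for both comparisons. Among pairs of members, Pearson's r in log2 CPM over the 6 libraries ran from -0.83 (miR-99b-3p and miR-125b-5p) to 0.97. The highest was that of miR-125a-5p and miR-99a-5p, which come from different chromosomes, followed by miR-99b-3p and miR-125a-3p at 0.92. For miR-99b-5p and miR-125a-5p, guides of the cluster in Spaca6, Pearson's r was -0.10. Same-lettered libraries are not independent here, so these values only describe the 6 libraries.

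miR-125b-1-3p, the passenger of Mir125b-1, was the only member called, and only with the letter block. It stood at 867, 667 and 760 CPM in control A, B and C (10708, 8680 and 11932 reads) and at 633, 443 and 392 CPM in the hypoxia libraries in the same order (10537, 7218 and 5401 reads). Every hypoxia library lay below every control library, although the lowest control (B) and the highest hypoxia library (A) were close. A set of 12.9% of all tested miRNAs had groups that did not overlap, and 5.49% were lower in hypoxia, so 1 of 10 members is near that background. Scaled by library size alone, the groups overlapped. The pairwise differences in log2 CPM were -0.45, -0.59 and -0.95 for A, B and C. Without the block the log2 fold change was -0.64 (SE 0.22, edgeR adjusted p = 0.65), and with it -0.67 (SE 0.12, edgeR adjusted p = 0.027), a level 37.0% lower in hypoxia. Leaving out pair A ended the blocked call (log2 fold change -0.77, edgeR adjusted p = 0.054), as did leaving out pair C (-0.53, edgeR adjusted p = 0.47), and without pair B it passed (-0.73, edgeR adjusted p = 0.0045). Over 21 alternative settings the log2 fold change ran from -0.88 to -0.53, with adjusted p from 5.2e-05 to 0.99.

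The passenger of the other miR-125b hairpin, miR-125b-2-3p, stood at 129, 157 and 135 CPM in control A, B and C, against 110, 165 and 132 CPM in hypoxia. Library B was the highest and A the lowest in both groups, and the log2 fold change was -0.05 (SE 0.21, edgeR adjusted p = 0.99), or 0.01 when scaled by library size alone.

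The remaining passengers did not pass in either fit. miR-99b-3p stood at 351, 432 and 389 CPM in control A, B and C, against 357, 345 and 296 CPM in hypoxia, a log2 difference of -0.23 (SE 0.18, edgeR adjusted p = 0.92). The groups overlapped through control A and hypoxia A. miR-125a-3p, at 40.1, 49.4 and 47.7 CPM in control libraries against 40.6, 41.6 and 38.1 CPM in hypoxia libraries, overlapped through the same libraries and differed by -0.19 on the log2 scale (SE 0.19, edgeR adjusted p = 0.97). The rarest member, miR-99a-3p, had between 105 and 160 reads per library and ranged from 6.55 to 11.3 CPM. It was lower in hypoxia in pair A and higher in pairs B and C, by -0.79, 0.28 and 0.60 in log2 CPM.

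**Figure D4:**
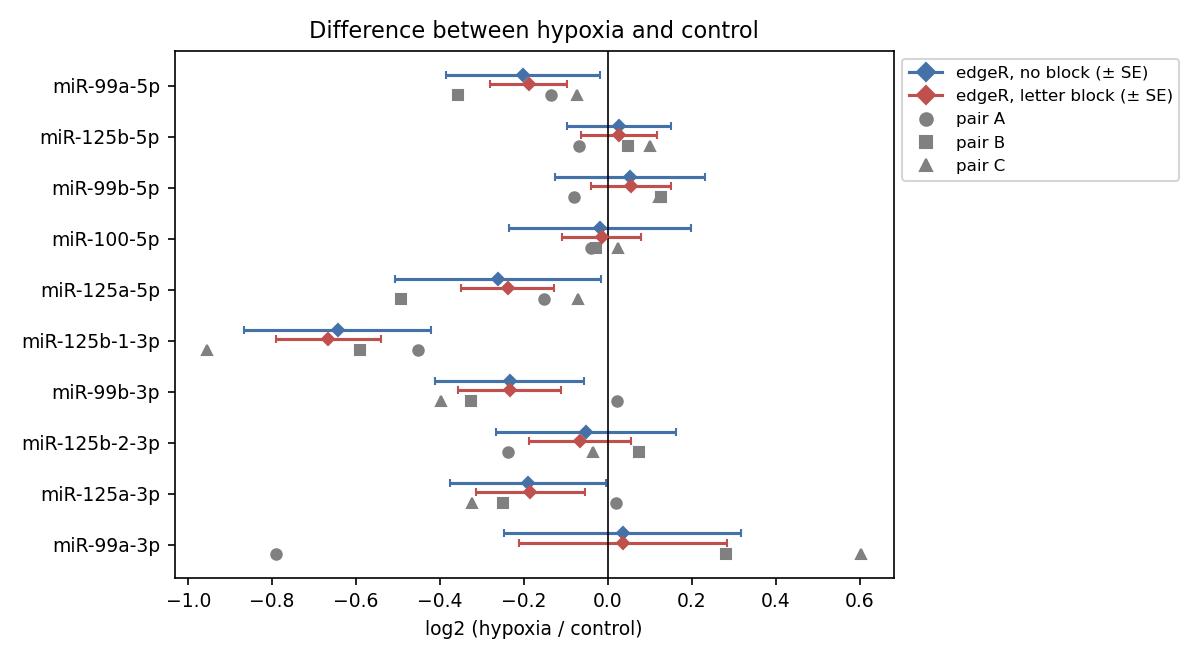
For each arm, the blue and red diamonds give edgeR's log2 fold change of hypoxia against control without and with the letter block, with bars of 1 SE, and grey symbols give the difference in log2 CPM within each same-lettered pair. miR-125b-1-3p is lowest at -0.64 and -0.67, its 3 pairs run from -0.45 to -0.95, and the 3 pairs of miR-99a-3p lie on both sides of 0.

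Ratios within a library, which do not depend on scaling, set each passenger against its guide. In control A, B and C there were 8.0, 6.82 and 7.44 miR-125b-1-3p reads per 100 miR-125b-5p reads, and in hypoxia A, B and C there were 6.13, 4.38 and 3.58. The groups did not overlap, and means were 7.42 ± 0.589 for control and 4.69 ± 1.3 for hypoxia (SD, n = 3). The log2 ratio differed by -0.69 between the groups (two-sided exact permutation test, p = 0.1, the smallest possible, adjusted p = 0.55 over 11 ratios), and by -0.39, -0.64 and -1.05 within pairs A, B and C (SD 0.338). Among 189 hairpin names with both arms tested, 18.5% had 3p to 5p ratios that did not overlap between the groups, and 8.47% were lower in hypoxia, so 1 such ratio among the 5 of these families is near that background. miR-125b-5p counts reads of both miR-125b hairpins, so this is not the ratio within Mir125b-1 alone.

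Against the same guide, miR-125b-2-3p gave 1.19, 1.61 and 1.32 reads per 100 in control A, B and C, against 1.06, 1.63 and 1.20 in hypoxia, a log2 difference of -0.09 (exact permutation test, p = 0.8, adjusted p = 0.88). Set directly against each other, there were 6.70, 4.25 and 5.64 miR-125b-1-3p reads per miR-125b-2-3p read in control A, B and C, against 5.78, 2.68 and 2.98 in hypoxia. The groups overlapped, through hypoxia A. The log2 ratio differed by -0.60 between the groups (two-sided exact permutation test, p = 0.3, adjusted p = 0.69), beside SDs of 0.33 for control and 0.60 for hypoxia. Within pairs A, B and C the difference was -0.21, -0.66 and -0.92.

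The other hairpins kept different and overlapping arm ratios. miR-99b-3p gave 4.53, 5.64 and 6.83 reads per 100 miR-99b-5p reads in control A, B and C, against 4.86, 4.12 and 4.77 in hypoxia (log2 difference -0.29, exact permutation test, p = 0.3, adjusted p = 0.69). miR-125a-3p gave between 1.05 and 1.74 per 100 miR-125a-5p reads, and miR-99a-3p between 0.0205 and 0.0440 per 100 miR-99a-5p reads. The passenger share thus spanned over 2 orders of magnitude among these hairpins, from Mir99a to Mir125b-1.

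**Figure D5:**
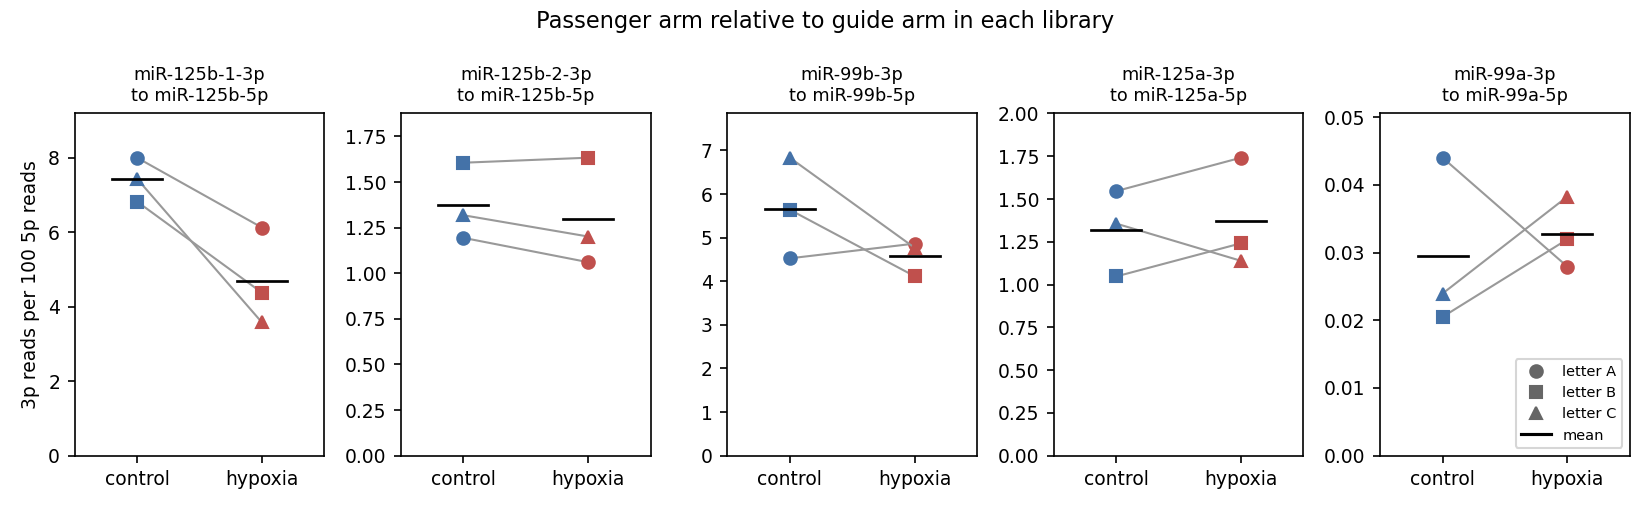
Reads of each passenger (3p) arm per 100 reads of its guide (5p) arm are plotted from 0 for every library, with grey lines joining same-lettered libraries and black lines at the means (n = 3). For miR-125b-1-3p all 3 hypoxia libraries (3.58 to 6.13) lie below all 3 controls (6.82 to 8.0), and in the other 4 panels the groups overlap.

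The other arms of the 3 clusters were given by 6 let-7 arms and miR-100-3p, a list drawn up from the cluster map. Without the block, edgeR, DESeq2 and limma-voom each called 0 of these 7, and 1 had an unadjusted p under 0.05 by edgeR, against 6.79% of all tested miRNAs. The blocked edgeR fit called 1, let-7c-1-3p, which was lower in hypoxia, against 2.26% of all tested in either direction and 1.29% in the lower direction. Without the block the median log2 fold change of the 7 was 0.03, beside 0.01 over all tested. Of the 7, 5 lay above 0, while 51.2% of all tested did. Scaled by library size alone, 6 of the 7 lay above 0 with a median of 0.087, against 60.3% and 0.077 for all tested. The guides let-7a-5p, let-7c-5p and let-7e-5p had log2 fold changes of 0.03 (SE 0.17), -0.03 (SE 0.15) and 0.09 (SE 0.14). let-7e-5p was higher in hypoxia in all 3 pairs, by 0.13, 0.06 and 0.08 in log2 CPM for A, B and C. Of the 7 arms, 2 kept the same direction in all 3 pairs, against 39.6% of all tested. The groups of let-7e-5p overlapped in CPM but not when scaled by library size alone. The share of all tested that did so was not computed. let-7a-5p and let-7c-5p are also made by hairpins outside these clusters.

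let-7c-1-3p, the passenger of the let-7 hairpin beside Mir99a, stood at 38.5, 54.6 and 53.8 CPM in control A, B and C, against 22.8, 35.0 and 37.6 CPM in hypoxia. All 3 hypoxia libraries lay below all 3 controls, with hypoxia C just under control A, but the groups overlapped when scaled by library size alone. As 12.9% of all tested miRNAs had groups that did not overlap, and 5.49% lay lower in hypoxia, 1 of 7 arms is near that background. The log2 fold change was -0.62 without the block (SE 0.26, edgeR adjusted p = 0.72) and -0.64 with it (SE 0.13, edgeR adjusted p = 0.032). The blocked call was lost without pair A (edgeR adjusted p = 0.066) and without pair C (edgeR adjusted p = 0.47). Against miR-125b-2-3p of the same cluster it gave 29.7, 34.8 and 40 reads per 100 in control and 20.8, 21.2 and 28.6 in hypoxia, without overlap (log2 difference -0.57, two-sided exact permutation test, p = 0.1, the smallest possible, adjusted p = 0.55). The difference within pairs was -0.52, -0.71 and -0.48 for A, B and C (SD 0.125).

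The other passenger arms of the cluster with Mir125b-1 had few reads. let-7a-2-3p had between 5 and 23 reads per library and miR-100-3p between 38 and 60, with log2 fold changes of 0.03 (SE 0.57) and 0.10 (SE 0.28). The SE of let-7a-2-3p was close to the size of the difference of miR-125b-1-3p (-0.64), so a difference of that size was not detectable there at this depth. For miR-100-3p the SE was 0.28 without the letter block and 0.27 with it, against 0.22 and 0.12 for miR-125b-1-3p. With the block the log2 fold change was 0.09 for miR-100-3p, beside -0.67 for miR-125b-1-3p, and their difference was not tested. miR-100-3p was not called in either fit. As miR-125b-1-3p itself was called only with the block, this lack of a call cannot decide whether such a difference was present. let-7e-3p, the passenger beside Mir125a, averaged 30.1 ± 6.74 CPM for control and 30.3 ± 1.04 CPM for hypoxia (SD, n = 3).

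miR-351-5p, which carries the miR-125 seed, added little to the pool of that seed. It stood at 398, 383 and 464 CPM in control A, B and C, against 413, 329 and 370 CPM in hypoxia, and the log2 fold change was -0.16 (SE 0.18, edgeR adjusted p = 0.97). With it, reads of miRNAs carrying the seed CCCUGAG made up 1.40% ± 0.0691 of the total for control and 1.42% ± 0.107 for hypoxia (SD, n = 3).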

How the data were processed

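Small RNA was measured in 3 control and 3 hypoxia libraries. The authors deposited raw read counts per known mature miRNA as whole numbers, 1 column per library. Per the submitters' processing notes bcl2fastq 2.0, DESeq2 and mm10 were used, in roles not stated. For the aligner, the counting of reads that fit several miRNAs and the miRNA annotation, names and settings were not given in the sources used here. let-7a-1-3p and let-7c-2-3p, which have the same mature sequence, had equal counts in all 6 libraries. No member matched another miRNA's counts to within 1% throughout the 6 libraries. A table of predicted miRNAs, which names no member, was not used here.

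The tests ran in R 4.3.3, with edgeR 4.0.16 (filterByExpr, TMM scaling, quasi-likelihood test), with DESeq2 1.42.0 and limma 3.58.1 as alternatives. SE was obtained by dividing the size of the log2 fold change by the root of the F statistic. The fit was checked on simulated data with larger differences than that of miR-125b-1-3p and no letter effect. That check therefore does not bear on the blocked call. Ratios used counts plus 0.5 and two-sided exact permutation tests, adjusted over 11 ratios, and the pairs an exact sign-flip test. Column letters were taken as pairs because deviations from group means correlated between same-lettered libraries over the 619 tested miRNAs (0.52, 0.43 and 0.28 for A, B and C), against at most 0.12 for unlike letters. Over the 10 members alone they were 0.37, 0.67 and 0.03, against up to 0.31 for unlike letters. Deviations from a group mean cancel out within the group, so positive values for same letters push those of unlike letters down. The contrast between same and unlike letters is therefore partly fixed in advance. The pairing was also read from the same counts that gave the blocked calls. The letters match no replicate number of the labels. Named were all members, the other cluster arms, sharers of a guide's seed and, for 2 arms, the 3 miRNAs most alike. Members and lists were chosen with earlier results of these data known. With a lowest total of 12285970 reads, a count of 0 allows up to 0.244 CPM (3 counts of the total), which covers counting error alone because PCR copies of a molecule are counted again.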

Additional observations from a re-analysis of the deposited data

How the results depend on the processing

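With 3 libraries in a group and pairs inferred from column letters, single libraries weigh heavily. The number of members called was 0 in every alternative without a block, and 1 with the replicate block, with DESeq2 and the replicate block, with library size only and the replicate block (these 2 chosen after seeing the data) and with the replicate block without pair B. The cluster partners gave the same counts, 1 in each of these 4 fits. Without pair A or pair C the replicate block gave 0 for both. All known miRNAs called numbered 14 with the replicate block, 37 with DESeq2 and the replicate block, 55 with library size only and the replicate block, 23 without pair B and 0 without pair A or C. Without the block they numbered 4 with no filter and 1 with DESeq2, against 0.

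The log2 fold changes of miR-99a-5p, miR-99b-3p, miR-125a-5p, miR-125a-3p, miR-125b-1-3p, let-7c-1-3p, let-7e-5p and miR-351-5p kept their sign in every alternative. None of the others was called in any. With library size only, the sign turned to 0.051 for miR-100-5p, 0.011 for miR-125b-2-3p and 0.040 for let-7c-5p, and with the replicate block added to 0.052, 0.00074 and 0.036. let-7e-3p turned to -0.012 with TMM without miR-21a-5p and miR-126a-3p, to -0.0096 with no filter, to -0.020 with a mean CPM of at least 10 and to -0.00088 with DESeq2. miR-125b-5p turned to -0.0038 with a mean CPM of at least 10, and let-7a-2-3p to -0.0051 with upper-quartile scaling. With the replicate block without pair A, miR-125b-2-3p was at 0.020, let-7c-5p at 0.0078 and let-7e-3p at -0.14. Without pair B, miR-99a-3p was at -0.12, miR-99b-5p at -0.0073, miR-125b-5p at -0.012 and let-7a-2-3p at -0.060. Without pair C, miR-99a-3p was at -0.26, miR-125b-5p at -0.017, let-7a-5p at -0.020 and miR-100-3p at -0.016. The cause was not tested.

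Leaving out each library in turn, log2 fold changes ran from -0.12 to 0.24 for miR-99a-3p, from -0.086 to 0.14 for miR-99b-5p, from -0.20 to 0.15 for miR-100-5p, from -0.032 to 0.042 for miR-125b-5p, from -0.24 to 0.076 for miR-125b-2-3p, from -0.091 to 0.13 for let-7a-5p, from -0.37 to 0.39 for let-7a-2-3p, from -0.12 to 0.080 for let-7c-5p, from -0.19 to 0.097 for let-7e-3p and from -0.022 to 0.19 for miR-100-3p. They kept their sign but ran from -0.35 to -0.03 for miR-99a-5p and from -0.47 to -0.04 for miR-125a-5p. Differences in log2 ratio ran from -0.0015 to 0.55 for miR-99a-3p to miR-99a-5p, from -0.13 to 0.18 for miR-125a-3p to miR-125a-5p, from -0.27 to 0.040 for miR-125b-2-3p to miR-125b-5p and from -0.48 to 0.098 for miR-99a-5p to miR-100-5p. They ran from -0.52 to -0.016 for miR-125a-5p to miR-125b-5p and from 0.11 to 0.59 for miR-99b-5p to miR-125a-5p. The number of the 11 ratios whose groups did not overlap was 2 with all libraries, 8 without control A and between 2 and 3 without any other library, where fewer libraries also overlap less readily. With all libraries, 18.5% of the 3p to 5p ratios of 189 hairpin names did not overlap, so 2 of 11 is near that background. No such share was computed with a library left out. Several of the 11 ratios share a miRNA, so they are not separate results. The pairing left every ratio's mean difference as it was, -0.69 for miR-125b-1-3p to miR-125b-5p, with an exact sign-flip p of 0.25, the smallest that 3 pairs allow.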

Other observations

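The miRNAs whose log2 CPM followed miR-125b-1-3p most closely over the 6 libraries were miR-129-5p (Pearson's r 0.97), miR-543-3p (0.97) and miR-495-3p (0.93), out of 361 others with a mean of at least 10 CPM. Mean levels went from 138 CPM in control to 91.5 CPM in hypoxia for miR-129-5p, from 342 to 219 CPM for miR-543-3p and from 128 to 84.2 CPM for miR-495-3p. For miR-125b-5p the closest were miR-17-3p (0.90), miR-26a-2-3p (0.88) and miR-130b-3p (0.87). These values are the top of 361 comparisons over 6 libraries that share letters and only describe them.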
